A study of Mus musculus with 4 samples.

Results

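Exosomes of the small intestinal epithelium (3m-SI-Exos) were compared with serum exosomes (3m-serum-exos) from untreated male C57BL/6J mice aged 3 months, as 1 small RNA library per source. The members were all miRNA names with at least 1 read in 1 of these 2 libraries, 552 of the 668 names in the whole series. The other libraries of the series, 18m-SI-Exos and 18m-serum-exos, came from mice aged 18 months and were used here as a separate comparison of the same sources. The SI-Exos were collected by ultracentrifugation of the supernatant of epithelium that had been released from everted intestine with EDTA, and the serum came from blood drawn from the heart. The labels and methods do not say how many mice went into a library, and with 1 library per source no difference has a replicate check. The comparison bears on which miRNAs of circulating exosomes could be carried by exosomes of the gut epithelium, a question the study raised for signals from gut to fat.

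Exosomes are small vesicles that cells release and that carry RNA and protein of the cell of origin. A miRNA is cut from a hairpin precursor whose arms, 5p and 3p, can each give a mature miRNA, and the mature strand finds messenger RNAs mainly through its seed, bases 2 to 8. Several miRNAs are made mostly in 1 tissue, such as the miR-200 family in epithelia, miR-192, miR-194 and miR-215 in gut epithelium and liver, miR-122 in hepatocytes and miR-451a in red blood cells. Serum receives vesicles and RNA from blood cells, vessel walls, liver and other organs.

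The sequences shown first, with the seed in capitals, are those of epithelial miRNAs with a higher share of reads in the intestinal library. Of these, miR-192-5p was abundant in both libraries. All sequences have the form given here. The sequences were taken from the deposited tables, and each is the same as the RefSeq entry of that name on GRCm38.p6.
miR-429-3p: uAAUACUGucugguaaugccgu
miR-200b-3p: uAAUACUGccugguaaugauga
miR-200c-3p: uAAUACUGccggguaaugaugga
miR-200a-3p: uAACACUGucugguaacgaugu
miR-141-3p: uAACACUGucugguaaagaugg
miR-192-5p: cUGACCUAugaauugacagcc
miR-215-5p: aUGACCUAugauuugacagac
miR-194-5p: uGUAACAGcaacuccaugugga
miR-194-1-3p: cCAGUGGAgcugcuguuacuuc
miR-215-3p: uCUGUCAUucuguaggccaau
miR-7a-5p: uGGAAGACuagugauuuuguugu
miR-7b-5p: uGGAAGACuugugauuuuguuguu
miR-429-3p, miR-200b-3p and miR-200c-3p share 1 seed, and so do, each with its own letters, the pairs miR-200a-3p and miR-141-3p, miR-192-5p and miR-215-5p, and miR-7a-5p and miR-7b-5p. Mir429 lies at chr4:156053905-156053987 and Mir200b at chr4:156055681-156055750, both on the minus strand of 1 locus that runs through an intron of Ttll10. Mir200c lies at chr6:124718322-124718390 on the minus strand, in an intron of the noncoding gene Gm15884. Mir192 lies at chr19:6264844-6264932 and Mir194-2 beside it at chr19:6264643-6264728, both on the plus strand and outside other annotated genes. Mir215 lies at chr1:185313581-185313692 in an exon of the antisense RNA gene 2010103J01Rik, and Mir194-1 at chr1:185313319-185313385 in an intron of the same gene, both on the plus strand and opposite to an intron of Iars2.

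The next sequences are those that led the serum library or were carried by both.
miR-451a: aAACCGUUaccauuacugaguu
miR-22-3p: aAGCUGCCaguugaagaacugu
miR-126a-3p: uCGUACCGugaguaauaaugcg
miR-16-5p: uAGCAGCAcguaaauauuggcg
miR-223-3p: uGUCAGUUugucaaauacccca
let-7f-5p: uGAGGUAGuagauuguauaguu
let-7c-5p: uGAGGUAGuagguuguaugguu
let-7a-5p: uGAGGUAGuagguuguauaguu
let-7i-5p: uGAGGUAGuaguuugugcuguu
miR-27b-3p: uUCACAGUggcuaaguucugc
miR-379-5p: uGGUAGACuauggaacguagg
Mir451a lies at chr11:78073170-78073241 on the plus strand outside other annotated genes, and Mir126a at chr2:26591357-26591429 on the plus strand in an exon annotated to the endothelial gene Egfl7. The 4 let-7 miRNAs shown share their seed and differ in a few bases after it, so that a read with an error can be counted under the name of a sister. Mir379 lies at chr12:109709060-109709125 on the plus strand.

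Depth differed between the sources. The libraries held 212215 miRNA reads in 3m-SI-Exos and 832002 in 3m-serum-exos, so that 1 read was 4.71 and 1.20 CPM, the library's miRNA reads being scaled to the same total. At 18 months the totals were 71353 and 778237 reads. The miRNA reads were 1.14% of the library total behind the authors' RPM in 3m-SI-Exos and 5.89% in 3m-serum-exos. Ratios below are CPM in 3m-SI-Exos over CPM in 3m-serum-exos, or the inverse where serum was higher, with an exact (Clopper-Pearson) 95% interval in parentheses that covers counting error only. miRNAs that reached 10 reads in either library are referred to as measured. A call needed a 2-fold ratio or a count of 0 on one side, with 1 outside the interval. Because CPM is a share, more of 1 miRNA lowers all others. Scaling by TMM made every ratio of SI-Exos to serum 2.22-fold lower, DESeq2 size factors 1.96-fold, totals without miR-122-5p and miR-451a 2.48-fold, and the authors' RPM, reads over the whole library, 5.16-fold. Where a list below lost intestinal calls by one of these, that is given with its count or with the miRNA. More vesicles from a cell type and more of a miRNA per vesicle cannot be told apart in these libraries.

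Of 274 measured miRNAs, 120 were higher in 3m-SI-Exos (43.8%), 80 were higher in 3m-serum-exos (29.2%) and 74 were not called. The intestinal library was led by epithelial miRNAs and the let-7 family. The serum library was led by the liver miRNA miR-122-5p and the red blood cell miRNA miR-451a. By a wider margin of 10-fold, 68 miRNAs were higher in 3m-SI-Exos (24.8%) and 37 in 3m-serum-exos (13.5%). Of these 37, 23 had 0 reads in the shallower intestinal library, and with 0 reads counted as 3 reads 17 of the 37 were left. Of the 120 miRNAs higher in 3m-SI-Exos, 66 were also called under all 5 other scalings, 43 of them known miRNAs. All 80 higher in serum kept their call, which the direction of these shifts fixes, and the authors' RPM added 72 more of those not called. With names of the same mature sequence added up, 118 were higher in 3m-SI-Exos and 78 in serum. Among these, let-7a-1-3p and let-7c-2-3p were called opposite ways. Together they had 47 and 169 reads and a ratio of 1.09 (0.772 to 1.51), which was not called.

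**Figure D1:**
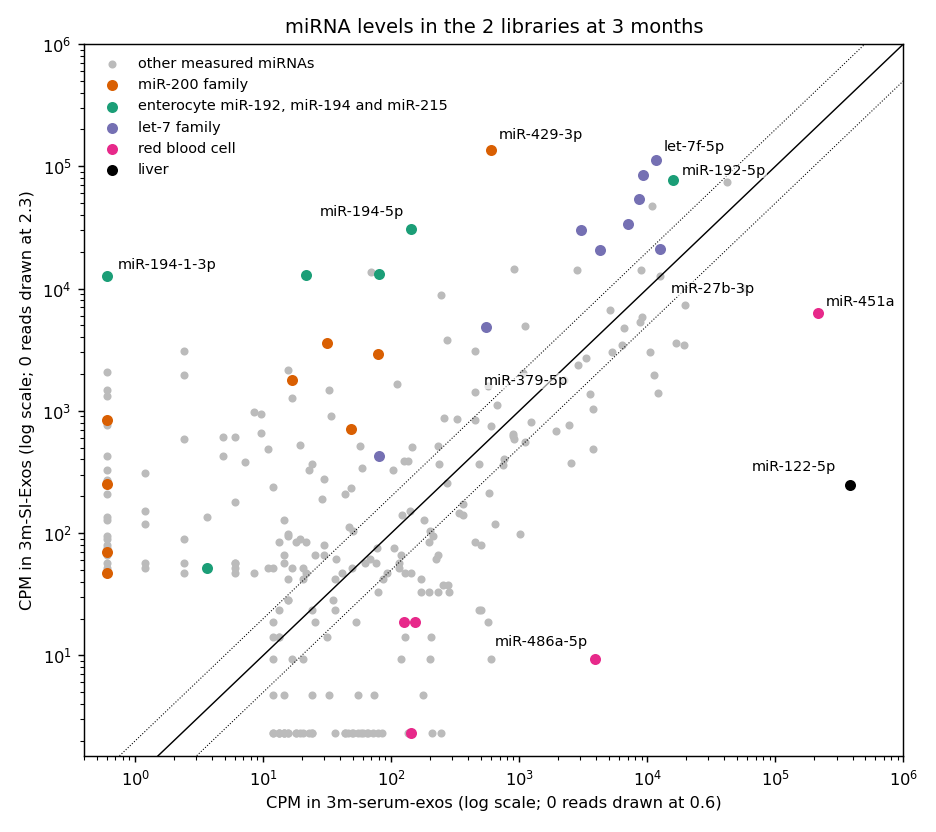
Levels of the 274 measured miRNAs in the 2 libraries at 3 months, CPM in 3m-serum-exos on the x axis and CPM in 3m-SI-Exos on the y axis, both on log scales, with 1 point per miRNA and 5 lists in color. The solid line marks equal CPM and the dotted lines a ratio of 2-fold. All 9 measured miR-200 miRNAs lie above the upper dotted line and all 5 red blood cell miRNAs below the lower one, and the let-7 points lie above the solid line, which by the authors' RPM would be 5.16-fold higher in the plot.

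More names were found in serum, but most reads were in shared names. The intestinal library held 326 names and the serum library 486, with 260 in both, 66 only in 3m-SI-Exos and 226 only in 3m-serum-exos. With the serum reads thinned to the intestinal total, 361 names were expected in serum and 230 in both. Names found in a single library took 2.25% of intestinal reads and 0.262% of serum reads. Of the measured miRNAs, 25 had 0 reads in 3m-serum-exos and 36 had 0 reads in 3m-SI-Exos. A count of 0 allows up to 3 reads, 14.1 CPM in 3m-SI-Exos and 3.61 CPM in 3m-serum-exos.

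The serum library was the more concentrated one. There miR-122-5p took 38.4% of all reads and miR-451a brought this to 60.0%. In 3m-SI-Exos the most abundant miRNA took 13.7% and the 5 most abundant took 48.6%. It took 6 names to reach 50% of intestinal reads and 31 to reach 90%, against 2 and 21 in serum. Without miR-122-5p and miR-451a, 9 and 34 names were needed in serum. The intestinal library was not reduced in the same way, so these numbers do not rank the spread of the 2 sources. The miRNAs called higher in 3m-SI-Exos made up 78.5% of intestinal reads and 8.14% of serum reads, and those called higher in serum made up 4.46% and 78.1%.

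The miR-200 family, which holds epithelial cells in their epithelial state, lay wholly on the intestinal side. All 9 measured members were higher in 3m-SI-Exos, each past the 10-fold margin, and all 9 kept the call under every scaling. The family took 14.7% of intestinal reads and 0.0780% of serum reads. The most abundant intestinal miRNA was miR-429-3p, with 29084 reads (137050 CPM) in 3m-SI-Exos and 504 reads (606 CPM) in 3m-serum-exos, 226-fold higher (207 to 248). miR-200c-3p had 758 and 26 reads and was 114-fold higher (77.4 to 176). miR-200b-3p had 381 and 14 reads and was 107-fold higher (62.8 to 197). The members with the other seed stood lower, with miR-200a-3p 37.0-fold higher (28.6 to 48.6) on 614 and 65 reads and miR-141-3p 14.8-fold higher (10.4 to 21.5) from 151 and 40 reads. Thus miRNAs cut from 1 transcript, miR-429-3p and miR-200a-3p, had ratios whose intervals did not overlap. The minor strand miR-200a-5p had 178 reads in 3m-SI-Exos and 0 in 3m-serum-exos, which puts the ratio at 233 or more with 3 serum reads assumed and its exact lower limit at 187.

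The enterocyte miRNAs miR-192, miR-194 and miR-215 had the highest median of the 25 lists described. All 6 measured names were higher in 3m-SI-Exos, 4 of them under every scaling (miR-192-5p and miR-192-3p by CPM but not by the authors' RPM), with a median log2 ratio of 7.54, or 7.24 above the median of all measured miRNAs, which was 0.30. miR-194-5p, which is cut from both hairpins, had 6568 reads (30950 CPM) in 3m-SI-Exos and 119 reads (143 CPM) in serum, 216-fold higher (180 to 262). miR-215-5p had 2780 and 67 reads and was 163-fold higher (128 to 211), and its partner strand miR-215-3p had 2760 and 18 reads and was 601-fold higher (380 to 1016). miR-194-1-3p had 2665 reads (12558 CPM) and 0 reads, which puts the ratio at 3483 or more with 3 serum reads assumed and its exact lower limit at 2830. These strands of Mir215 and Mir194-1 on chromosome 1 were abundant in the intestine and near or at 0 in serum.

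miR-192-5p did not share this separation. It was abundant in both libraries, with 16378 reads (77176 CPM) in 3m-SI-Exos and 13184 reads (15846 CPM) in 3m-serum-exos, 4.87-fold higher (4.76 to 4.98) by CPM and 0.943-fold by the authors' RPM. Within a library, where scaling plays no part, there were 2.49 reads of miR-192-5p per read of miR-194-5p in 3m-SI-Exos (2.42 to 2.57) and 111 in 3m-serum-exos (92.5 to 134). miR-192-5p is also made by hepatocytes, whose defining miRNA miR-122-5p stood at 0.00317 reads per read of miR-192-5p in 3m-SI-Exos and 24.3 in serum. The part of liver vesicles in the serum level of miR-192-5p was not tested.

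The miRNAs of secretory and endocrine epithelial cells were higher in 3m-SI-Exos in 9 of 9 measured names, 6 of which kept the call under every scaling. Their share of reads was 2.92% in 3m-SI-Exos and 0.131% in serum. miR-375-3p, known from endocrine and goblet cells, had 1880 and 204 reads and was 36.1-fold higher (31.2 to 42.0). miR-7a-5p, of endocrine and neural cells, had 3055 and 755 reads and was 15.9-fold higher (14.6 to 17.2). Its sister miR-7b-5p had 312 reads in 3m-SI-Exos and 0 in serum, at least 408-fold higher (exact lower limit 330). The 2 sequences differ in few bases, so reads of one could have been counted under the name of the other. Summed by their shared seed, they had 3367 and 755 reads and a ratio of 17.4 (16.1 to 18.9). The cluster of miR-183, miR-96 and miR-182, known from sensory cells, moved together. miR-183-5p had 313 and 27 reads, 45.4-fold higher (30.6 to 70.1), and miR-182-5p and miR-96-5p had 283 and 162 reads in 3m-SI-Exos and 0 in serum.

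Among miRNAs of epithelial renewal and barrier, 4 of 6 measured were higher in 3m-SI-Exos and 1 was higher in serum. miR-31-5p, which acts in crypt regeneration, had 201 and 8 reads and was 98.5-fold higher (49.0 to 231). Its partner strand miR-31-3p had 91 and 4 reads and was 89.2-fold higher (33.7 to 334). miR-203-3p, known from differentiating epidermis, had 112 and 16 reads and was 27.4-fold higher (16.2 to 49.7). miR-205-5p, of stratified epithelia, had 0 reads in 3m-SI-Exos and 36 in serum, at least 3.06-fold higher in serum (exact lower limit 2.36). The p53 target miR-34a-5p stood at a ratio of 0.580 (0.533 to 0.630), under the 2-fold needed.

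Markers of other cells were also in the intestinal library, at lower shares than in serum for red blood cells, myeloid cells, endothelium and liver. The lymphoid list had a higher share in 3m-SI-Exos, 1.49% against 0.664% of miRNA reads. By the authors' RPM, however, 0 of its names were higher in 3m-SI-Exos and 2 were higher in serum. The red blood cell miRNAs took 0.632% of intestinal reads, the myeloid ones 0.592%, the endothelial ones 0.750% and the liver ones 0.0245%. The smooth muscle list took 7.50%, nearly all of it miR-143-3p, with 15740 reads (74170 CPM) in 3m-SI-Exos and 34810 reads (41839 CPM) in 3m-serum-exos. This miRNA, known from smooth muscle and fibroblasts, stood at 1.77 (1.74 to 1.81), under the 2-fold needed, whereas its cluster partner miR-145a-5p was 2.60-fold higher in 3m-SI-Exos (2.14 to 3.15) by CPM and 0.503-fold by the authors' RPM. The part of cells beneath the epithelium in these levels was not tested. Of the fibroblast and mesenchyme list, 2 of 3 measured names were higher in 3m-SI-Exos and 1 in serum.

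That list turns on how 1 sequence was named. miR-199a-3p had 0 reads in 3m-SI-Exos and 203 in 3m-serum-exos, and miR-199b-3p had 66 and 1. RefSeq gives both names the same mature sequence, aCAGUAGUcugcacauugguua. Added up, the 2 names had 66 and 204 reads and a ratio of 1.27 (0.946 to 1.68), which was not called. The strand of the other arm, miR-199a-5p, had 78 and 20 reads and was 15.3-fold higher in 3m-SI-Exos (9.26 to 26.4).

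The let-7 family, whose miRNAs promote differentiation, was the largest group in 3m-SI-Exos. It took 36.2% of intestinal reads and 5.70% of serum reads. By CPM 8 of 9 measured members were higher in 3m-SI-Exos and 0 in serum, around a median of 2.66 on the log2 scale, but none of the 8 kept the call by the authors' RPM, where 0 were higher and let-7i-5p was lower. let-7f-5p had 23912 reads (112678 CPM) in 3m-SI-Exos and 9724 reads (11687 CPM) in serum, 9.64-fold higher (9.42 to 9.87). let-7c-5p was 9.14-fold higher (8.90 to 9.39), let-7b-5p 9.94-fold higher (9.49 to 10.4) and let-7a-5p 6.34-fold higher (6.15 to 6.53). let-7g-5p was 4.84-fold higher (4.68 to 5.02) by CPM and 0.938-fold by the authors' RPM. let-7i-5p stood apart from its sisters, with 4463 and 10472 reads and a ratio of 1.67 (1.61 to 1.73). The intervals of let-7f-5p and let-7i-5p did not overlap, and this difference between sisters does not depend on scaling.

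**Figure D2:**
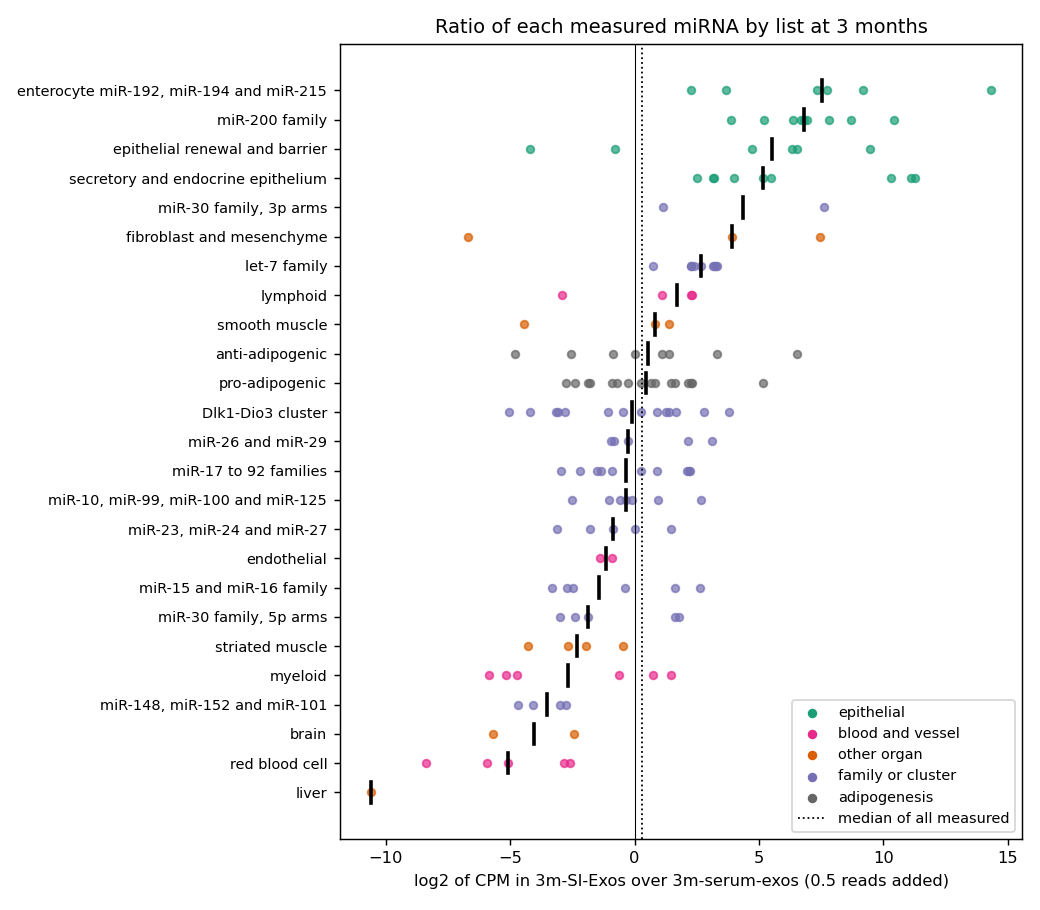
Log2 ratio of 3m-SI-Exos over 3m-serum-exos for each measured miRNA of 25 lists, with 0.5 reads added to each count. Points are miRNAs, colored by the class of list, thick bars are list medians and the dotted line is the median of all measured miRNAs, 0.30. The epithelial lists lie at the right, with medians from 5.17 to 7.54, and the liver and red blood cell lists at the left, at -10.60 and -5.10. By the authors' RPM every point would lie 2.37 further left.

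Serum was set apart by liver and red blood cell miRNAs. miR-122-5p had 52 reads (245 CPM) in 3m-SI-Exos and 319826 reads (384405 CPM) in 3m-serum-exos, 1569-fold higher in serum (1196 to 2101). All 5 measured red blood cell miRNAs were higher in serum. miR-451a had 1332 reads (6277 CPM) in 3m-SI-Exos and 179389 reads (215611 CPM) in serum, 34.4-fold higher (32.6 to 36.3). miR-486a-5p had 2 and 3258 reads and was 415-fold higher (115 to 3432), although its reads could have been split with those of the near-identical miR-486b-5p, 4 and 127. miR-144-3p, cut from the same transcript as miR-451a, had 4 and 105 reads and was 6.70-fold higher (2.54 at the lower limit). The number of miR-451a reads per read of miR-23a-3p, a measure used for red blood cell lysis in serum, was 17.7 in 3m-serum-exos (17.3 to 18.0) and 4.48 in 3m-SI-Exos (3.95 to 5.10). The part of lysis in the serum level of these miRNAs was not tested.

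White blood cell and vessel miRNAs were mixed. Of 6 measured myeloid miRNAs, 3 were higher in serum and 1 in 3m-SI-Exos, the latter not by the authors' RPM. miR-223-3p, of neutrophils and monocytes, had 4 and 473 reads and was 30.2-fold higher in serum (11.7 to 111). miR-223-5p had 0 and 114 reads, 9.69-fold higher in serum with 3 intestinal reads assumed, and less at its exact lower limit. miR-146a-5p, induced by NF-kB, was abundant in both, with 1240 and 7505 reads and a ratio of 0.648 (0.609 to 0.688). Of 4 measured lymphoid miRNAs, miR-150-5p, of mature B and T cells, was 7.64-fold higher in serum (6.28 to 9.38). miR-181a-5p and miR-181b-5p were 5.01- and 4.90-fold higher in 3m-SI-Exos by CPM, and 0.970- and 0.949-fold by the authors' RPM. The endothelial miR-126a-3p had 1570 and 16277 reads and was 2.64-fold higher in serum (2.51 to 2.79).

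Striated muscle and brain miRNAs were on the serum side where they were called. Of 4 measured striated muscle miRNAs, 3 were higher in serum, among them miR-206-3p, 6.73-fold (3.35 to 15.8), and miR-499-5p, 21.4-fold (9.09 to 66.2). The muscle miR-1a-3p had 1002 and 5445 reads and a ratio of 0.721 (0.674 to 0.772), although its cluster partner miR-133a-3p was 4.02-fold higher in serum (2.06 to 8.98) on 9 and 142 reads. miR-128-3p, of neurons, had 2 and 502 reads and was 64.0-fold higher in serum (17.6 to 530). miR-326-3p and miR-328-3p, which belong to no list, were among the farthest on the serum side, with 0 and 174 reads and with 5 and 404 reads.

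Families made in most cells, apart from the list of miR-148, miR-152 and miR-101, had calls on both sides by CPM. So had all 274 measured miRNAs, with 120 higher in 3m-SI-Exos and 80 in serum. By the authors' RPM none of the families' intestinal calls was left, and over all measured miRNAs 66 were higher in 3m-SI-Exos and 156 in serum. Of 10 miRNAs measured in the families of miR-17, miR-18, miR-19, miR-25 and miR-92, which act in proliferation, 4 were higher in serum and 3 in 3m-SI-Exos by CPM, and 7 and 0 by the authors' RPM. miR-25-3p was 4.60-fold higher in serum (4.28 to 4.96), miR-93-5p 2.57-fold (2.28 to 2.91) and miR-92a-3p 2.83-fold (2.39 to 3.38). Of 6 measured miRNAs of the miR-15 and miR-16 family, 3 were higher in serum and 2 in 3m-SI-Exos by CPM, and 4 and 0 by the authors' RPM, and miR-16-5p, which limits the cell cycle and is abundant in red blood cells, was 5.59-fold higher in serum (5.19 to 6.03). miR-22-3p, the most abundant serum miRNA after miR-122-5p and miR-451a, had 2135 and 46992 reads and was 5.61-fold higher in serum (5.38 to 5.87). All 4 measured miRNAs of the list of miR-148, miR-152 and miR-101 were higher in serum, with miR-148a-3p 6.77-fold higher (5.42 to 8.58) from 80 and 2124 reads. Of 7 measured names of the list of miR-10, miR-99, miR-100 and miR-125, 2 were higher in serum and 1 in 3m-SI-Exos by CPM, and 6 and 0 by the authors' RPM, with miR-99a-5p 5.78-fold higher in serum (5.24 to 6.39).

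The miR-23, miR-24 and miR-27 miRNAs come from a pair of clusters whose members parted. miR-23a-3p was 8.71-fold higher in serum (7.76 to 9.81) on 297 and 10142 reads. miR-23b-3p had 338 and 474 reads and was 2.80-fold higher in 3m-SI-Exos (2.42 to 3.22) by CPM and 0.541-fold by the authors' RPM. These sisters share a seed, and their intervals did not overlap, which scaling cannot change. miR-27b-3p had 2662 reads (12544 CPM) and 10346 reads (12435 CPM), a ratio of 1.01 (0.966 to 1.05). It was the most abundant of 8 miRNAs whose interval lay within 1.5-fold of 1 by CPM. The others were miR-191-5p, miR-1a-3p, miR-26b-5p, miR-652-3p, miR-10a-5p, miR-490-5p and miR-125b-5p. miR-24-3p, made by both clusters, was 3.47-fold higher in serum (3.20 to 3.76).

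For miR-26 and miR-29, 2 of 5 measured names were higher in 3m-SI-Exos and 1 in serum by CPM, and 0 and 3 by the authors' RPM. miR-26a-5p had 10089 and 8963 reads and was 4.41-fold higher in 3m-SI-Exos (4.29 to 4.54) by CPM and 0.855-fold by the authors' RPM. Its sister miR-26b-5p, with the same seed, had 577 and 2751 reads and a ratio of 0.822 (0.750 to 0.900).

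In the miR-30 family the arms went apart. The 5p arms were higher in 3m-SI-Exos in 2 and higher in serum in 2 of 5 measured names, whereas both measured 3p arms were higher in 3m-SI-Exos by CPM. By the authors' RPM 0 of the 5p arms and 1 of the 3p arms kept that call. miR-30e-3p had 2915 reads (13736 CPM) in 3m-SI-Exos and 58 reads (69.7 CPM) in serum, 197-fold higher (152 to 260). From the same hairpin, miR-30e-5p had 0 and 15 reads, which is too few to call. miR-30d-5p was 3.63-fold higher in serum (3.16 to 4.18) and miR-30a-5p 5.36-fold (3.34 to 9.14), whereas miR-30b-5p and miR-30c-5p were 3.47- and 3.09-fold higher in 3m-SI-Exos by CPM and 0.672- and 0.599-fold by the authors' RPM. miR-30a-3p was 2.21-fold higher in 3m-SI-Exos (1.73 to 2.82) by CPM and lower than in serum by TMM, at 0.996-fold, and by the authors' RPM, at 0.429-fold.

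The Dlk1-Dio3 cluster, an imprinted locus on chromosome 12 with many miRNAs that are most active before birth, holds miR-379-5p, the miRNA the study followed from young SI-Exos to fat. The study took it from miRNAs that differed between ages in these libraries, after measuring those again by RT-qPCR in SI-Exos and fat. miR-379-5p had 302 reads (1423 CPM) in 3m-SI-Exos and 374 reads (450 CPM) in 3m-serum-exos, 3.17-fold higher (2.71 to 3.69) by CPM and 0.613-fold by the authors' RPM. Of 14 measured members of the cluster, 5 were higher in 3m-SI-Exos and 3 in serum by CPM, and 1 and 9 by the authors' RPM. Over all 274 measured miRNAs these counts were 120 and 80 by CPM, and 66 and 156 by the authors' RPM. miR-411-5p, from the hairpin next to Mir379, had 807 and 228 reads and was 13.9-fold higher in 3m-SI-Exos (12.0 to 16.1), and it was the only member that kept this call under every scaling. miR-127-3p had 659 and 376 reads and was 6.87-fold higher (6.05 to 7.82). The cluster took 0.878% of intestinal and 0.171% of serum reads.

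Lists of miRNAs known to promote or to limit adipocyte differentiation lay near the median of all miRNAs. Of 16 measured pro-adipogenic miRNAs, 6 were higher in 3m-SI-Exos and 4 in serum by CPM, and 1 and 10 by the authors' RPM, with a median log2 ratio of 0.47, which was below 0 by TMM, DESeq2, the authors' RPM and totals without the most abundant miRNAs. They took 16.9% of intestinal and 8.39% of serum reads, of which miR-143-3p and miR-26a-5p were the largest parts in 3m-SI-Exos. miR-378a-3p, encoded in Ppargc1b, had 3008 and 7375 reads and a ratio of 1.60 (1.53 to 1.67). Of 8 measured anti-adipogenic miRNAs, 3 were higher in 3m-SI-Exos and 1 in serum by CPM, and 1 and 5 by the authors' RPM, with a median of 0.55 that was also below 0 under those scalings. miR-27a-3p of this list had a ratio of 0.551 (0.509 to 0.595).

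Predicted miRNAs, which the authors' pipeline named without a miRBase entry, were mostly intestinal. Of 33 measured, 29 were higher in 3m-SI-Exos and 2 in serum by CPM. Of the 66 names that kept the intestinal call under all 5 other scalings, 43 were known and the others predicted, so that not all of these 29 kept it. The authors' RPM turned a member of this group to the serum side. The predicted miRNAs took 1.59% of intestinal reads and 0.129% of serum reads. The share of measured names that was called higher in 3m-SI-Exos was thus above that over all names. Among known miRNAs alone, 91 of 241 measured were higher in 3m-SI-Exos and 78 in serum.

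Reads were then summed by seed, since miRNAs with 1 seed share many targets. Of 433 seeds, 192 were found in both libraries. The 8 leading seeds of 3m-SI-Exos took 78.3% of its reads with a mature sequence but a much smaller part of serum, and the 8 leading seeds of serum took 81.8% of serum and 48.1% of intestinal reads. Only 3 seeds were in both sets of 8, those of let-7, miR-143-3p and miR-27b-3p. The let-7 seed GAGGUAG took 36.3% of intestinal and 5.72% of serum reads, and it was the largest seed in 3m-SI-Exos and ranked after those of miR-122-5p and miR-451a in serum. The seed AAUACUG of miR-429-3p took 14.2% (14.1 to 14.4%) and 0.0656% (0.0602 to 0.0714%), and 29084 of its 30223 intestinal reads were miR-429-3p. The seed UGACCUA of miR-192-5p and miR-215-5p took 9.03% and 1.60%, and the seed GUAACAG of miR-194-5p took 3.10% and 0.0144%. The seed GGAAGAC of miR-7a-5p and miR-7b-5p took 1.59% and 0.0911%. In serum the seed of miR-122-5p took 38.6%, that of miR-451a 21.6% and that of miR-22-3p 5.67%. With miR-429-3p and miR-122-5p, the most abundant miRNA of each library, left out, all 26 shares of the leading seeds lay outside their exact intervals.

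**Figure D3:**
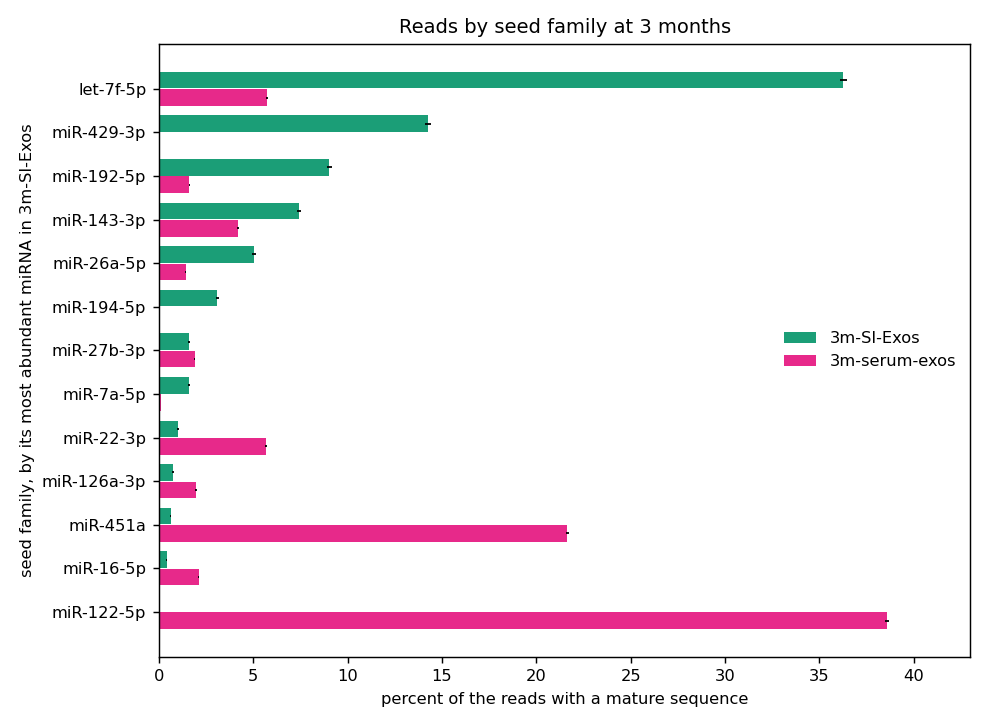
Share of the reads with a mature sequence that carried each seed, for the 8 leading seeds of each library at 3 months, 13 in all. Bars are percent of reads in 3m-SI-Exos and in 3m-serum-exos, each seed is named by its most abundant miRNA in 3m-SI-Exos, and error bars are exact 95% intervals for counting error. The let-7 seed leads the intestinal library at 36.3% and the miR-122-5p seed the serum library at 38.6%.

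The choice between the arms of a hairpin compares reads within a library, so that it does not depend on scaling. Of 60 hairpins with at least 10 reads of the arms in each library, 22 had a 5p share that differed (36.7%), called with an odds ratio of at least 2-fold and an interval without 1. The share was higher in 3m-SI-Exos in 13 and lower in 9. In 53 hairpins the same arm held most reads in both libraries, and the other 7 were miR-199a, miR-214, miR-296, miR-30a, miR-328, miR-342 and miR-574. Of these, miR-214 was not called, on 5 and 7 reads of its 5p and 3p arms in 3m-SI-Exos and 8 and 7 in serum. For miR-328 the 5p arm took 76.2% in 3m-SI-Exos (52.8 to 91.8%) on 21 reads and 0% in serum (up to 0.909%) on 404 reads. For miR-574 it took 88.0% (79.6 to 93.9%) and 5.88% (2.19 to 12.4%). For miR-342 it took 53.3% (26.6 to 78.7%) and 2.05% (0.426 to 5.89%). For miR-296 it took 0% (up to 26.5%) on 12 reads and 96.0% (86.3 to 99.5%). For miR-199a it took 100% and 8.97%, but with the reads named miR-199b-3p, which can come from either hairpin, added to its 3p arm it took 54.2% (45.7 to 62.5%) and 8.93% (5.54 to 13.5%). At 18 months the 5p arm of miR-574 took 75.4% in SI-Exos and 17.2% in serum. That of miR-328 took 0% in both sources, on 12 intestinal reads. That of miR-342 took 0% in SI-Exos, on 16 reads, and 2.70% in serum. miR-296 had 0 intestinal reads at that age.

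Hairpins with more reads differed by small and by large amounts. miR-30a had 18 reads of the 5p and 109 of the 3p arm in 3m-SI-Exos, and 378 and 193 in serum. Its 5p share was 14.2% (8.62 to 21.5%) and 66.2% (62.2 to 70.1%), and at 18 months 15.2% in SI-Exos and 61.25% in serum. Among the hairpins with the clearest odds ratios, miR-30e gave 0% 5p reads in 3m-SI-Exos (up to 0.126%) and 20.5% in serum (12.0 to 31.6%). let-7d gave 99.2% (98.8 to 99.4%) and 92.2% (at least 91.3%), and miR-21a gave 99.3% (98.6 to 99.7%) and 100% (at least 99.9%). miR-215 gave 50.2% 5p reads in 3m-SI-Exos (48.9 to 51.5%), nearly equal arms, and 78.8% in serum (68.6 to 86.9%). miR-200a gave 22.5% 5p reads in 3m-SI-Exos (19.6 to 25.5%) and 0% in serum (up to 5.52%), and miR-203 gave 44.6% (37.6 to 51.7%) and 0% (up to 20.6%). miR-22 and miR-126a, led by 3p, and miR-192 and miR-30d, led by 5p, were among the 38 hairpins not called.

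**Figure D4:**
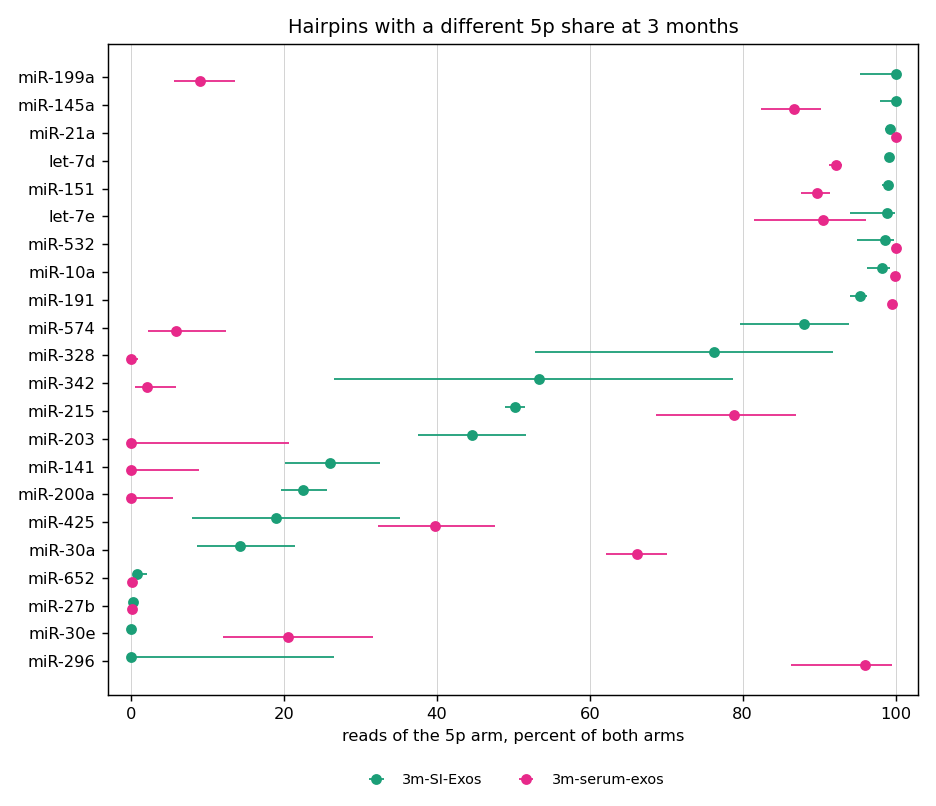
Reads of the 5p arm as percent of the reads of both arms, on the x axis, for the 22 hairpins whose 5p share differed between 3m-SI-Exos and 3m-serum-exos. Points are shares in each library and bars are exact 95% intervals. miR-328, miR-574 and miR-199a lie at opposite ends, the last without the reads named miR-199b-3p, which have the same sequence as its 3p arm, whereas miR-21a, miR-532, miR-652 and miR-27b differ by under 2 percentage points.

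The mature sequences of the 2 sides were alike in base composition. Median GC content was 45.5% in the 89 known miRNAs higher in 3m-SI-Exos with a sequence and 47.6% in the 77 higher in serum, against 45.5% in all 238. Across these 238 miRNAs, which share libraries and depth, Spearman's rho of GC content with the log2 ratio was -0.01. Median length was 22 bases in both. The 3p arm was named in 31.5% of the former and 57.1% of the latter, against 39.9% in all. The motif GGAG, known from sorting of miRNAs into exosomes of T cells, was in 13.5% of those higher in 3m-SI-Exos, in 5.19% of those higher in serum and in 9.24% of all. The letters CCCU were in 2.25%, 13.0% and 7.98%. Motifs were searched on the strand of the miRNA, and a match is a description of letters only.

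At 18 months the same sources gave a comparison that shares no library with that at 3 months. Values at this age are by CPM unless stated, and the authors' RPM made every ratio 12.9-fold lower there. At 18 months 86 of 262 measured miRNAs were higher in SI-Exos (32.8%) and 78 in serum (29.8%). Of the 200 called at 3 months, 112 were called the same way at 18 months and 11 the other way. Of the 68 miRNAs at least 10-fold higher in 3m-SI-Exos, 48 were measured at 18 months, of which 43 were higher in 18m-SI-Exos and 0 lower. Of the 37 on the serum side, 32 were measured, of which 22 were higher in 18m-serum-exos and 1 lower. Over the 227 miRNAs measured at both ages the log2 ratios had a Pearson r of 0.74 and a Spearman rho of 0.67, as a description, and 177 had the same sign.

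**Figure D5:**
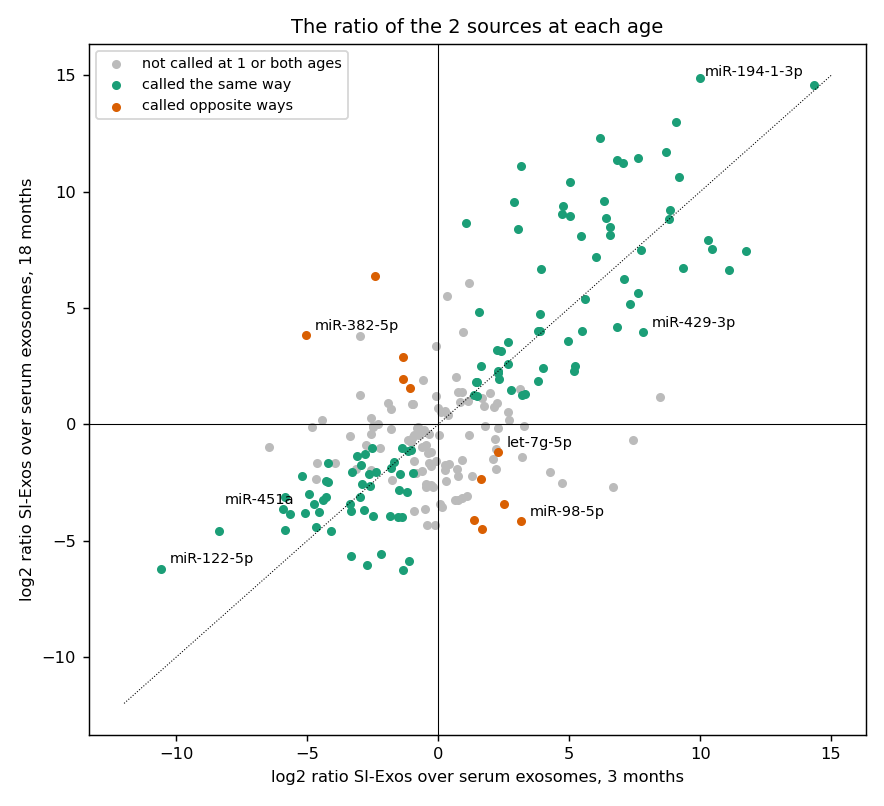
Log2 ratio of SI-Exos over serum exosomes at 3 months, on the x axis, and at 18 months, on the y axis, with 0.5 reads added to each count, for the 227 miRNAs measured at both ages. Points are miRNAs, colored by whether they were called the same way at both ages (112), opposite ways (11) or not at 1 or both, and the dotted line marks equal ratios. miR-122-5p and miR-429-3p lie on the same side at both ages but nearer to 0 at 18 months, whereas let-7g-5p and miR-98-5p change sides.

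All 5 measured enterocyte miRNAs were higher in 18m-SI-Exos by CPM, whereas by the authors' RPM 4 were higher there and 1 was higher in serum. The list took 29.4% of 18m-SI-Exos reads and 0.471% of 18m-serum-exos reads, and miR-194-1-3p had 10125 and 4 reads. Of 7 measured miR-200 miRNAs, 6 were higher in 18m-SI-Exos and 0 in serum by CPM, and 2 and 2 by the authors' RPM. The family took 3.14% and 0.197%, and miR-429-3p, with 1917 and 1350 reads, was 15.5-fold higher by CPM and 1.20-fold by the authors' RPM. The secretory list took 0.910% and 0.171%, with 5 of 7 measured names higher in 18m-SI-Exos and 1 in serum by CPM, and 2 and 4 by the authors' RPM. The renewal list took 0.921% and 0.285%, with 2 of 5 higher in 18m-SI-Exos and 1 in serum by CPM, and 2 and 3 by the authors' RPM. The let-7 family took 11.6% and 12.1%, nearly equal shares. In serum the liver list took 38.4% of reads at 3 months and 2.65% at 18 months, and the red blood cell list took 22.0% and 54.0%. The miR-451a reads per read of miR-23a-3p were 63.2 in 18m-serum-exos (61.7 to 64.8) and 11.5 in 18m-SI-Exos (10.1 to 13.3), and the part of these shares in the differences between ages was not tested. miR-379-5p had 8 and 42 reads at 18 months, a ratio of 2.08 (0.842 to 4.48).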

How the data were processed

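Small RNA libraries of 3m-SI-Exos, 18m-SI-Exos, 3m-serum-exos and 18m-serum-exos were compared, 1 per group, so that intervals cover counting error alone and no p-value was computed. The authors mapped reads with Bowtie2 2.2.9 to GRCm38 and deposited a read count per miRNA in a table per source. They also deposited RPM, which the values show to be reads per whole-library total. The submitters name different sequencing kits and platforms in the labels and in the study's methods. The authors' columns of fold change, p-value and FDR between ages were not used.

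The tables were joined on the miRNA name, and a name missing from one was set to 0 reads. Counts were scaled to the column's sum (CPM) with Python 3.11.15, pandas 2.3.3 and scipy 1.17.1. Reads of the sources were compared by the binomial share of the reads of a miRNA that fell in 1 library, with exact 95% limits. miRNAs with at least 10 reads in 1 library of the pair were kept. The steps were tested on simulated data. Other scalings (TMM of edgeR 4.0.16 and size factors of DESeq2 1.42.0, used as scale factors alone), filters, limits and summed duplicate sequences were tried. Scalings of the calls that turned between ages and of the epithelial lists at 18 months were added after seeing the data. Named were the 10 most abundant miRNAs of each library, the 10 called each way whose interval lay farthest from 1, the 10 most abundant within 1.5-fold of 1 (8 were found), the 4 most abundant of each list, cluster members, the 8 hairpins with the clearest odds ratio, the 8 leading seeds and miR-379-5p. Other strands and hairpins were named after their values were seen. The members and lists were chosen with earlier results of these data known. Mature sequences were given in the tables, and those of RefSeq on GRCm38.p6 were used to compare them, with 196 of the 198 known measured names that have an entry the same.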

Additional observations from a re-analysis of the deposited data

Results flagged for a closer look

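For 11 miRNAs the ratio of SI-Exos to serum exosomes was called one way at 3 months and the other way at 18 months, with 1 library per source and age, and the difference between ages was not tested. These reversals depend on the scaling. Of the 11, 6 were left by TMM, 6 by DESeq2, 7 without the 5 most abundant miRNAs, 5 without miR-122-5p and miR-451a and 1 by the authors' RPM, which made ratios 5.16-fold lower at 3 months and 12.9-fold lower at 18 months. Ratios of CPM in SI-Exos over CPM in serum exosomes are given for 3 months and then for 18 months.

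The let-7 sisters let-7g-5p and miR-98-5p were higher in SI-Exos at 3 months and lower at 18 months. let-7g-5p went from 4.84 to 0.437. miR-98-5p went from 8.88, on 1031 and 455 reads, to 0.0503, on 5 and 1084 reads. miR-30c-5p went from 3.09 to 0.167 and miR-7a-1-3p from 5.76 to 0.0623, the latter on 1 intestinal read at 18 months. miR-1983 had a ratio of 3.15 and miR-301a-3p of 2.54 at 3 months, and both had 0 reads in 18m-SI-Exos. By the authors' RPM none of these 6 was called higher in 3m-SI-Exos, and miR-1983, miR-301a-3p and miR-30c-5p were not by TMM either.

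The others were lower in SI-Exos at 3 months and higher at 18 months by CPM. miR-320-3p went from 0.388 to 7.40, miR-423-5p from 0.356 to 3.64 and miR-574-3p from 0.449 to 2.88. By the authors' RPM their 18-month ratios were 0.572, 0.281 and 0.223, on the serum side at both ages, and by TMM those of miR-423-5p and miR-574-3p were 1.62 and 1.28, which were not called. miR-382-5p of the Dlk1-Dio3 cluster had a ratio of 0 at 3 months, on 0 and 65 reads, and of 14.3 at 18 months, on 21 and 16 reads, which by the authors' RPM was 1.11. A miRNA predicted by the authors' pipeline went from 0.181 to 84.0, and it was the 1 reversal left by the authors' RPM, where its 18-month ratio was 6.50.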

How the results depend on the processing

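The counts rest on the scaling, the depth and the treatment of 0 reads, and the cause of the changes below was not tested beyond what each setting changes by construction. No paired analysis was possible because each group has 1 library. Of the miRNAs measured, 128 were higher in serum by TMM, 122 by DESeq2, 156 by the authors' RPM, 123 without the 5 most abundant miRNAs and 131 without miR-122-5p and miR-451a, and by 10-fold 71, 70, 100, 70 and 71. Higher in SI-Exos were 66 by RPM. With at least 50 reads required, 70 were higher in SI-Exos, 44 of them by 10-fold, and 24 were higher in serum by 10-fold, and with 0 reads set to 3 this last count was 17. Names with at least 10 reads in both libraries numbered 139. Calls of the same direction at 18 months were 76 with at least 50 reads and 160 by RPM, of 135 and 222.

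Some values changed direction. By RPM the ratio was 0.938 for let-7g-5p, 0.503 for miR-145a-5p, 0.970 for miR-181a-5p, 0.949 for miR-181b-5p, 0.943 for miR-192-5p, 0.541 for miR-23b-3p, 0.855 for miR-26a-5p, 0.429 for miR-30a-3p, 0.672 for miR-30b-5p, 0.599 for miR-30c-5p and 0.613 for miR-379-5p. For miR-30a-3p it was 0.996 by TMM and 0.891 without miR-122-5p and miR-451a. The lymphoid median log2 ratio was -0.68 by RPM. In the order of TMM, DESeq2, RPM, without the 5 most abundant and without miR-122-5p and miR-451a, the median was -0.33, -0.15, -1.54, -0.18 and -0.49 for smooth muscle, -0.69, -0.50, -1.90, -0.54 and -0.85 for the pro-adipogenic list, and -0.60, -0.42, -1.82, -0.45 and -0.76 for the anti-adipogenic list. With at least 50 reads the pro-adipogenic median was -0.28. The Dlk1-Dio3 median was 0.17 with 2 reads added in place of 0.5 and 1.66 with at least 50 reads.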
